A study of Mus musculus with 24 samples.

Results

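The inhibitors of DNA binding Id1, Id2 and Id3 and the inhibitory Smads Smad6 and Smad7 were followed in total RNA of cultured mouse fibroblasts of the NIH-3T3 line after exposure to interferon. All probe sets whose platform gene symbol was Id1, Id2, Id3, Smad6 or Smad7 were taken, which gave 8 of the 45101 probe sets of the array, and 5 of its 18193 gene symbols: 3 for Id2, 2 for Smad7 and 1 each for Id1, Id3 and Smad6. The 24 arrays fell into 7 groups. Cells received IFN-alpha or IFN-gamma at 100 U/ml, or mock treatment, in fresh medium, and RNA was taken after 3 h (3 arrays in each of the 3 treatments) or after 1 h (4 arrays each). All of these cells were also labelled with 4-thiouridine (4sU), a nucleoside that enters newly made RNA, at 500 µM for the last 30 min (minutes 150 to 180) of the 3 h cultures and at 200 µM throughout the 60 min of the 1 h cultures. A further 3 arrays came from mock cells at 1 h without 4sU. Total cellular RNA was hybridised in every case, from a single cell line, and fewer cells and less RNA per cell cannot be told apart in such bulk samples.

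Id proteins are helix-loop-helix proteins without a DNA-binding region. They pair with E proteins, the common partners of tissue-specific helix-loop-helix factors, and keep them off DNA, and their genes are classical early targets of bone morphogenetic proteins (BMPs), which signal through Smad1, Smad5 and Smad4. Smad6 and Smad7 are induced by the same family of ligands and close a negative feedback loop: both bind type I receptors, Smad6 mainly on the BMP side and Smad7 on both the BMP and the TGF-beta side.

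The promoters of Id2, Id3 and Smad6 are given here because Smad recognition letters can be looked for in them. Among the probe sets of the Id genes and inhibitory Smads that exceeded log2 4 on every array, Id2 1422537_a_at had the largest differences between the times. It was not called in the main fit used below, and its differences were smaller without the arrays of low 5′ actin signal. Smad6 was higher at 3 h in each treatment and was not called in that fit either. At most 2 of the 4 arrays of each 1 h group exceeded log2 4 for Smad6, so its difference is not ranked. Each window runs from 250 bases before to 50 bases after the annotated start, 5′ to 3′ on the strand of the gene, from RefSeq on GRCm38.p6. The Id2 window is chr12:25096043-25096342 on the minus strand, the Id3 window chr4:136143572-136143871 on the plus strand and the Smad6 window chr9:64022010-64022309 on the minus strand. Capitals mark the matches found to a GC-rich BMP Smad motif, GGCGCC, or to the Smad palindrome, GTCTAGAC.
Id2: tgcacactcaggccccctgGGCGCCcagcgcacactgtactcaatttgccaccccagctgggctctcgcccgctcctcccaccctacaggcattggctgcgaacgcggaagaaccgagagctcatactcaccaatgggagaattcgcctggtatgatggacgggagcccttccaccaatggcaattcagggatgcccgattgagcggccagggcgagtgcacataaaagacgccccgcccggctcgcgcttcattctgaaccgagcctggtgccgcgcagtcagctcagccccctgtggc
Id3: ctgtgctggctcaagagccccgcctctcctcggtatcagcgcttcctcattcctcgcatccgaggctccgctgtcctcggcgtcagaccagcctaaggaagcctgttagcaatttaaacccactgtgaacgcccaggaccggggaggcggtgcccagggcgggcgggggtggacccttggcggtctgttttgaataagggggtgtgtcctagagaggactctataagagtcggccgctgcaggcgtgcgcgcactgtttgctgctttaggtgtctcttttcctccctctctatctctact
Smad6: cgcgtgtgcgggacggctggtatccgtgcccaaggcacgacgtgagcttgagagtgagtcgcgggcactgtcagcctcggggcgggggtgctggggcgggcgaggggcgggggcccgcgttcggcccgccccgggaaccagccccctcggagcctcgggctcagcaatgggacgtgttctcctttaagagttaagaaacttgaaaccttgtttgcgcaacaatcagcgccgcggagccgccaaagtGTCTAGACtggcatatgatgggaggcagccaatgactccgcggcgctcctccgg
Id2 held 1 copy of GGCGCC, at bases -231 to -226 from the start, and this motif was present in 11.9% of 32817 RefSeq windows of the same length. Smad6 held 1 copy of GTCTAGAC, at bases -4 to 4 and so across the start itself, a motif present in 0.213% of the windows. The Id3 window held neither. These motifs read the same on both strands and do not overlap here. A further motif, GAS (TTCNNNGAA, with N for any base), was searched as well. It had 0 matches in each of the printed windows and was present in 8.29% of the RefSeq windows. A match is a match of letters only. Id1 and Smad7 are described without a printed sequence.

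Signals are log2 values from GCRMA, and a level is compared only within a probe set. A probe set was tested if it exceeded log2 4 on at least 3 arrays, which 19305 probe sets did, and it was called at a limma adjusted p under 0.05 over these. Of the 8 probe sets of the 5 genes, 7 were tested. The third Id2 probe set, 1453596_at, lay between 2.45 and 3.41 and was never above 4. Smad6 was the dimmest tested gene on its probe set, above 4 on 13 of 24 arrays, 9 of them at 3 h, so that its filter was passed mainly through the 3 h groups. The other 6 exceeded 4 on all 24 arrays. The array annotation gives no position for the probes, and 1443771_x_at of Smad7 belongs to a class of probe set that can share probes with other transcripts.

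**Figure D1:**
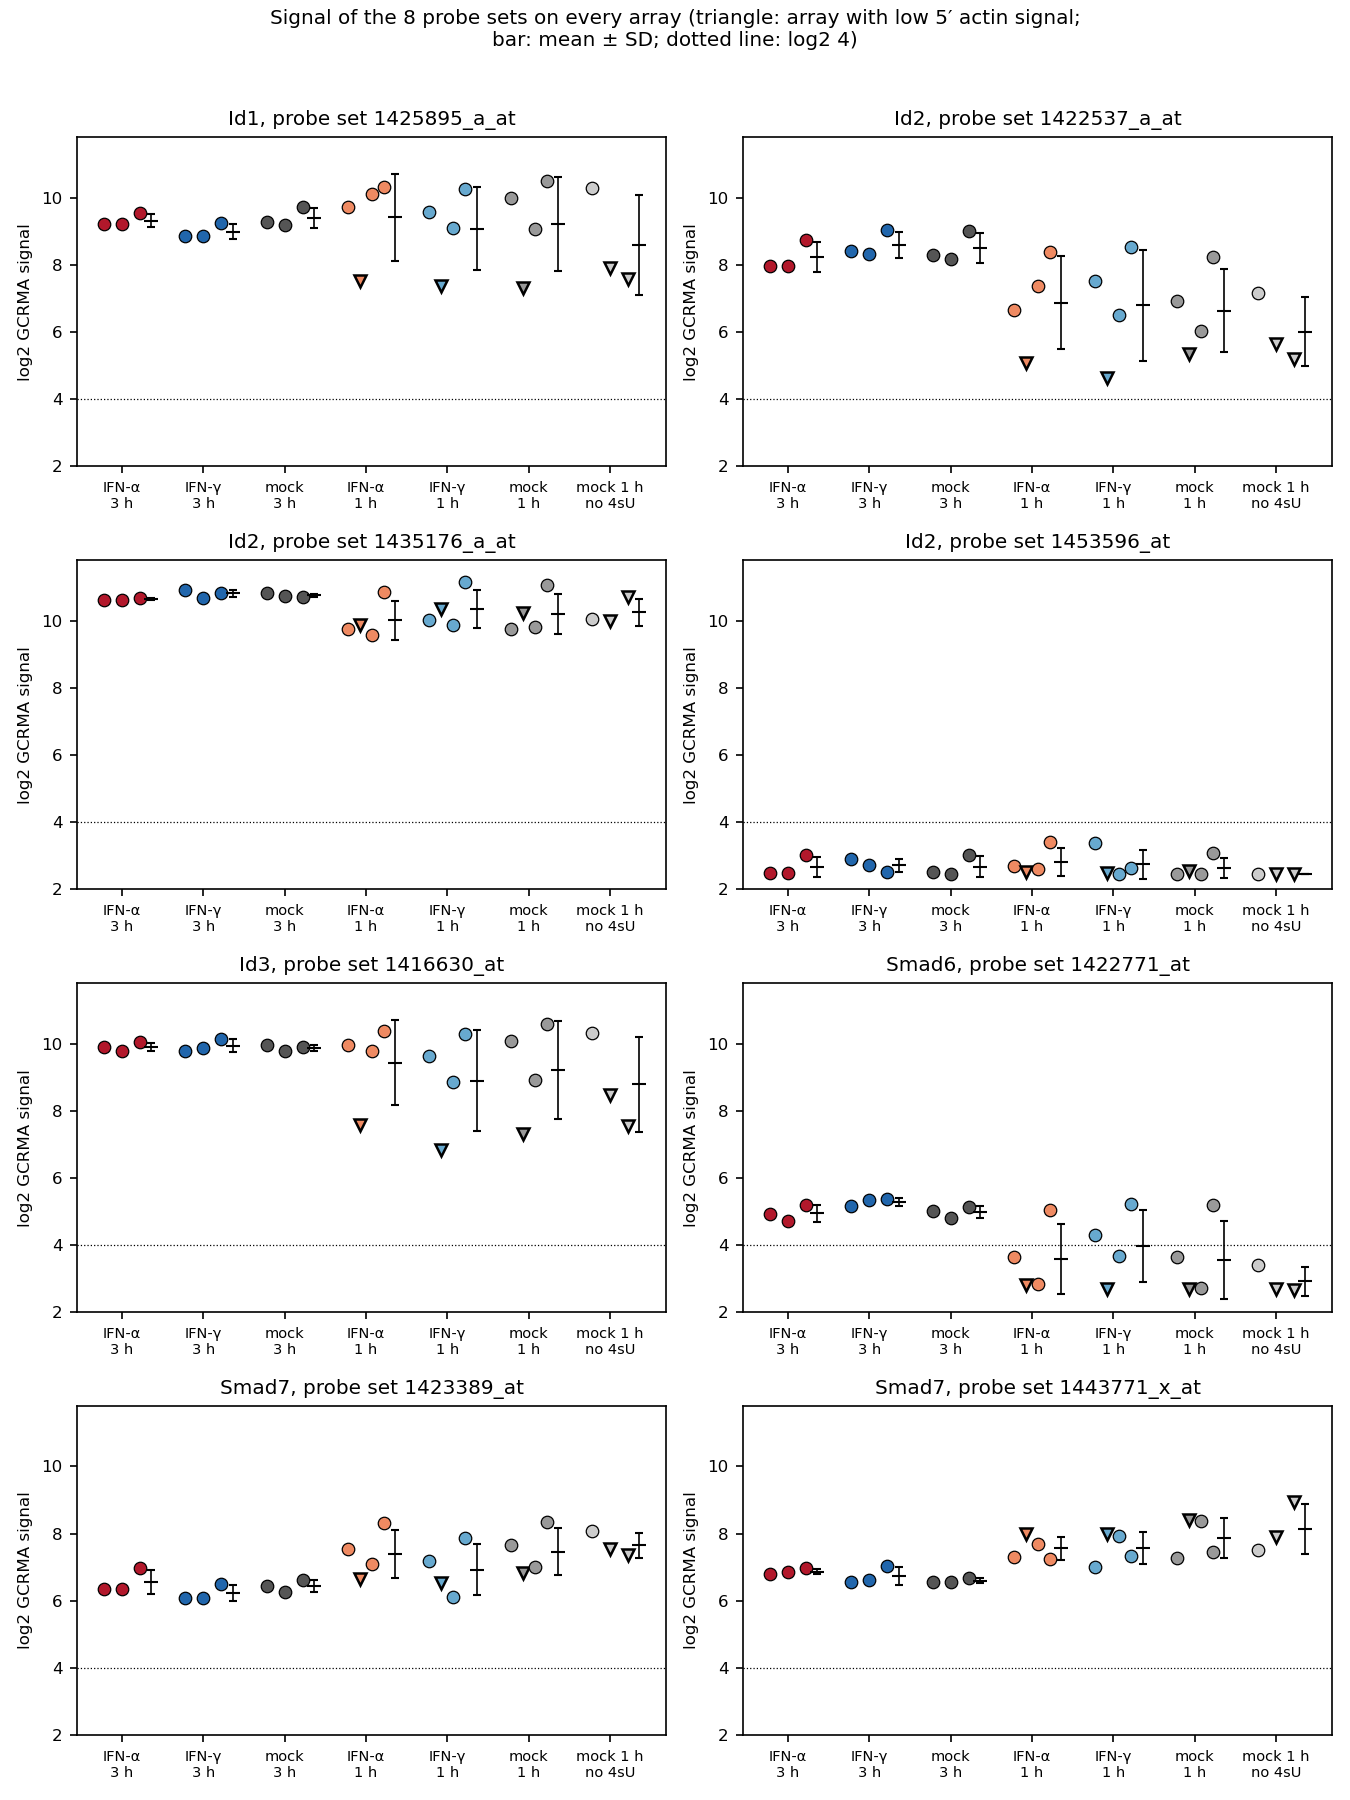
Log2 GCRMA signal (y axis) of the 8 probe sets on each of the 24 arrays, by group (x axis), with the mean and SD beside each group and triangles for the 5 arrays with low 5′ actin signal. The triangles lie lowest for Id1, Id3 and the Id2 probe set 1422537_a_at, while both Smad7 probe sets are lower at 3 h than at 1 h in the mock groups.

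Fibroblast identity held in these libraries: 8 fibroblast markers, collagen genes and Vim among them, all exceeded 4 and had a median level of 12.4, while markers of leukocytes, endothelium and epithelium had medians of 2.46, 2.25 and 2.72, with only Cd14 (5.35) above 4 on average. The treatments acted as well, since Irf1, an early interferon target, differed from mock by 4.54 with IFN-gamma and 0.98 with IFN-alpha at 3 h. At 1 h Irf1 differed by 5.28 and 3.35 (limma, highest adjusted p over both times = 0.0210). Socs3, also taken as a check, differed by 3.14 with IFN-gamma at 3 h, and by 4.08 with IFN-gamma and 2.12 with IFN-alpha at 1 h. With IFN-alpha at 3 h its difference was 0.10 and was not called. Replicates were tighter at 3 h, with a median SD over all tested probe sets of 0.118 to 0.127, against 0.350 to 0.403 at 1 h. On 5 arrays the 3′ minus 5′ beta-actin signal was above 2 (2.22 to 3.43, against 0.785 to 1.37 on the other arrays). These were replicate 2 of IFN-alpha, IFN-gamma and mock at 1 h, and replicates 2 and 3 of mock without 4sU. Same-numbered arrays deviated together within each time, but only weakly for replicate 1 of IFN-gamma and mock at 3 h (r = 0.128). Number 2 was the better match there, as for replicate 1 of IFN-alpha against IFN-gamma at 3 h. A fit with the replicate number as a block is given wherever it changed a call within a time. At 1 h this block also joined unlabelled to labelled arrays, whose numbers did not pair throughout (r = 0.0809 to 0.802).

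The low 5′ actin arrays moved with the signals of most of the genes. Id1 averaged 7.53 on the 5 low arrays, against 9.89 on the other 10 arrays at 1 h, and did not overlap between them (7.30 to 7.91, against 9.08 to 10.51). Id3 averaged 7.55 on the low arrays, against 9.88 on the others, again without overlap (6.83 to 8.46, against 8.84 to 10.60). The group SDs of both genes were 0.08 to 0.29 at 3 h, against 1.24 to 1.5 at 1 h. The Id2 probe set 1422537_a_at averaged 5.18 on the low arrays, against 7.33 on the others, and Smad6 2.71 against 3.97. The probe sets of one gene did not behave alike: the second Id2 probe set, 1435176_a_at, had 10.23 against 10.18, and the Smad7 probe sets had 6.98 against 7.52 for 1423389_at but 8.25 against 7.51 for 1443771_x_at. Results at 1 h are therefore given with and without these arrays where the call or value moved.

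**Figure D2:**
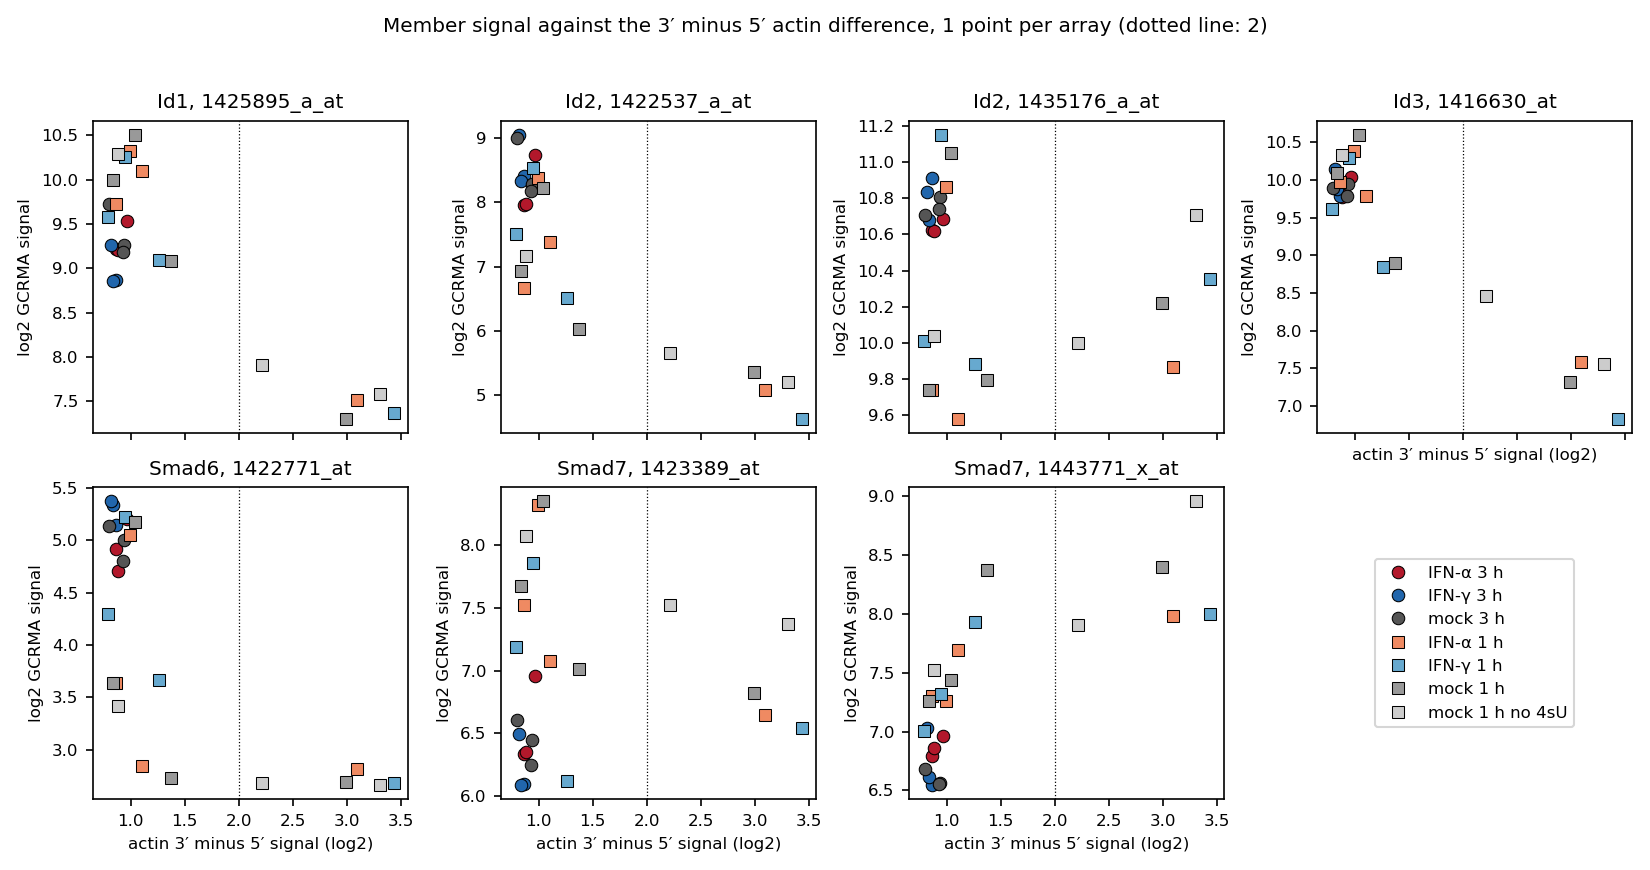
Signal of the 7 tested probe sets (log2, y axis, 1 scale per panel) against the 3′ minus 5′ actin difference (log2, x axis), 1 point per array, circles for 3 h and squares for 1 h. The 5 arrays right of the dotted line at 2 hold the lowest Id1 and Id3 signals, and their 1443771_x_at signals of Smad7 run from 7.91 to 8.96.

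IFN-gamma was compared with mock at 1 h and 3 h to ask whether it changed the feedback genes. With all 24 arrays in one limma fit none of the 7 probe sets was called at either time, nor had an unadjusted p under 0.05 (0 of 7), while 1.99% of all tested probe sets were called at 3 h and 0.492% at 1 h. The largest of these differences was that of Smad7, the receptor-blocking Smad. Its probe set 1423389_at read 7.19, 6.54, 6.12 and 7.86 with IFN-gamma at 1 h, against 7.67, 6.82, 7.01 and 8.35 in mock cells. The groups overlapped, as replicates 1 and 4 were higher than 2 and 3 under both treatments, but each IFN-gamma array was below the mock array of the same number, by 0.28 to 0.89. The mean difference of -0.54 (1.45-fold lower) had an SE of 0.38 and an adjusted p of 1.00 in the fit without pairing. With the replicate number as a block the SE was 0.12 and the adjusted p 0.0369, in a comparison where 0.264% of probe sets were called lower under the block.

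That call of Smad7 at 1 h was not stable. Leaving out each of the 8 arrays in turn from the blocked fit kept it in 1 case, with adjusted p from 0.0311 to 0.165. With the 1 h arrays fitted alone, still blocked, the adjusted p was 0.195, and with both times blocked but without the low 5′ actin arrays it was 0.0198, where 0.539% of all probe sets were called lower. The other Smad7 probe set, 1443771_x_at, was also below mock in 4 of 4 pairs (7.001, 8.003, 7.93 and 7.32 with IFN-gamma, against 7.26, 8.40, 8.37 and 7.44 in mock cells). Its difference of -0.30 did not pass with the block (adjusted p = 0.788). At 3 h 1423389_at read 6.09, 6.09 and 6.50 with IFN-gamma, against 6.45, 6.25 and 6.60 in mock cells, lower in 3 of 3 pairs and overlapping, with a difference of -0.21 (adjusted p = 0.916 with the block). Whether the IFN-gamma difference of 1423389_at changed between the times was tested, and the change of 0.33 (SE 0.58) was not called (adjusted p = 1.00).

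Among Id1, Id2 and Id3, the largest IFN-gamma difference was that of Id1 at 3 h. Id1 read 8.87, 8.85 and 9.26 with IFN-gamma at 3 h, against 9.26, 9.18 and 9.72 in mock cells. The replicate 3 array was the highest in both groups, the groups overlapped between 9.18 and 9.26, and every IFN-gamma array was below its same-numbered mock array, by 0.33 to 0.46. The difference of -0.40 (1.32-fold lower) was not called over all 24 arrays, with an SE of 0.83 and adjusted p = 1.00, nor with the block on all arrays (adjusted p = 1.00). The 1 h arrays shared in the estimate of that SE. With the 3 h arrays fitted alone and blocked, a setting chosen after the data were seen, it was 0.066 and the adjusted p 0.00857. That fit called 3.62% of all probe sets lower, and Id1 kept its call in all 6 fits that left out 1 array (adjusted p 0.0272 to 0.0438). Fitted alone without the block, the 3 h arrays gave an adjusted p of 0.295 for Id1. At 1 h Id1 read 9.58, 7.37, 9.09 and 10.26 with IFN-gamma, against 9.996, 7.30, 9.08 and 10.51 in mock cells, lower in 2 of 4 pairs (difference -0.15, 95% interval -1.64 to 1.35).

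Id2 and Id3 gave smaller or less regular IFN-gamma differences. Id3 read 9.62, 6.83, 8.84 and 10.28 with IFN-gamma at 1 h, against 10.09, 7.31, 8.90 and 10.60 in mock cells, lower in 4 of 4 pairs (difference -0.33, SE 0.75). At 3 h the same gene read 9.78, 9.88 and 10.15, against 9.95, 9.79 and 9.89, a difference of 0.06 with 2 of 3 pairs higher. The 1 h and 3 h groups of Id3 both overlapped with mock. Id2 was above mock in all same-numbered pairs on 1422537_a_at at 3 h (8.41, 8.34 and 9.05 with IFN-gamma, against 8.28, 8.18 and 9.003 in mock cells, difference 0.11) and on 1435176_a_at at 1 h (10.01, 10.35, 9.88 and 11.15, against 9.74, 10.22, 9.80 and 11.05, difference 0.15). The other Id2 combinations were mixed: 1422537_a_at at 1 h was higher in 3 of 4 pairs, with -0.72 in replicate 2, and 1435176_a_at at 3 h in 2 of 3, with -0.06 in replicate 2. None of these passed with or without the block.

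Smad6, the inhibitory Smad of the BMP side, was higher with IFN-gamma at 3 h on every array, but not past the test. It read 5.15, 5.34 and 5.37, against 5.01, 4.81 and 5.14 in mock cells. The groups did not overlap, which held upward for 8.31% of all tested probe sets, and the difference of 0.30 (1.23-fold) had an SE of 0.62 (adjusted p = 1.00, or 0.800 with the block). At 1 h Smad6 read 4.29, 2.68, 3.66 and 5.22 with IFN-gamma, against 3.64, 2.69, 2.73 and 5.18 in mock cells, a difference of 0.41 with 3 of 4 pairs higher and overlap between the groups.

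IFN-alpha was compared with mock in the same way. None of the 7 probe sets was called by limma, or had an unadjusted p under 0.05 (0 of 7), at 3 h, where 1.55% of all were called, or at 1 h, where 0.259% were. The block changed neither count. At 3 h Smad7 1443771_x_at read 6.79, 6.86 and 6.96 with IFN-alpha, against 6.56, 6.55 and 6.68 in mock cells. It did not overlap with mock, as did 6.21% of all probe sets in the upward direction, and its difference of 0.27 (SE 0.35) had an adjusted p of 1.00. The other Smad7 probe set read 6.34, 6.35 and 6.96, against 6.45, 6.25 and 6.60, and overlapped with mock. The main Id2 probe set by signal, 1435176_a_at, read 10.62, 10.62 and 10.68 with IFN-alpha, against 10.81, 10.74 and 10.71 in mock cells, without overlap downward, which 13.4% of all probe sets also showed. Its difference was only -0.11. On 1422537_a_at Id2 was 7.96, 7.98 and 8.73 with IFN-alpha, below the same-numbered mock array in 3 of 3 pairs by 0.20 to 0.32, but overlapping.

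For Id1, Id3 and Smad6, IFN-alpha differences at 3 h lay between -0.07 and 0.02. At 1 h replicate 3 stood apart in the Id genes: Id1 was 1.02 above mock in that pair, Id3 0.88 and Id2 1.36 on 1422537_a_at, while the other pairs of these 3 probe sets lay between -0.28 and 0.27. The mean IFN-alpha differences at 1 h of 0.19 for Id1, 0.21 for Id3 and 0.24 for Id2 1422537_a_at therefore rested on replicate 3. The actin difference of that pair was 1.10 with IFN-alpha and 1.37 in mock cells, and its part in these values was not tested. Smad7 1423389_at was 7.53, 6.65, 7.08 and 8.32 with IFN-alpha at 1 h, within 0.18 of the same-numbered mock array in every pair (difference -0.07, 95% interval -0.86 to 0.72).

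**Figure D3:**
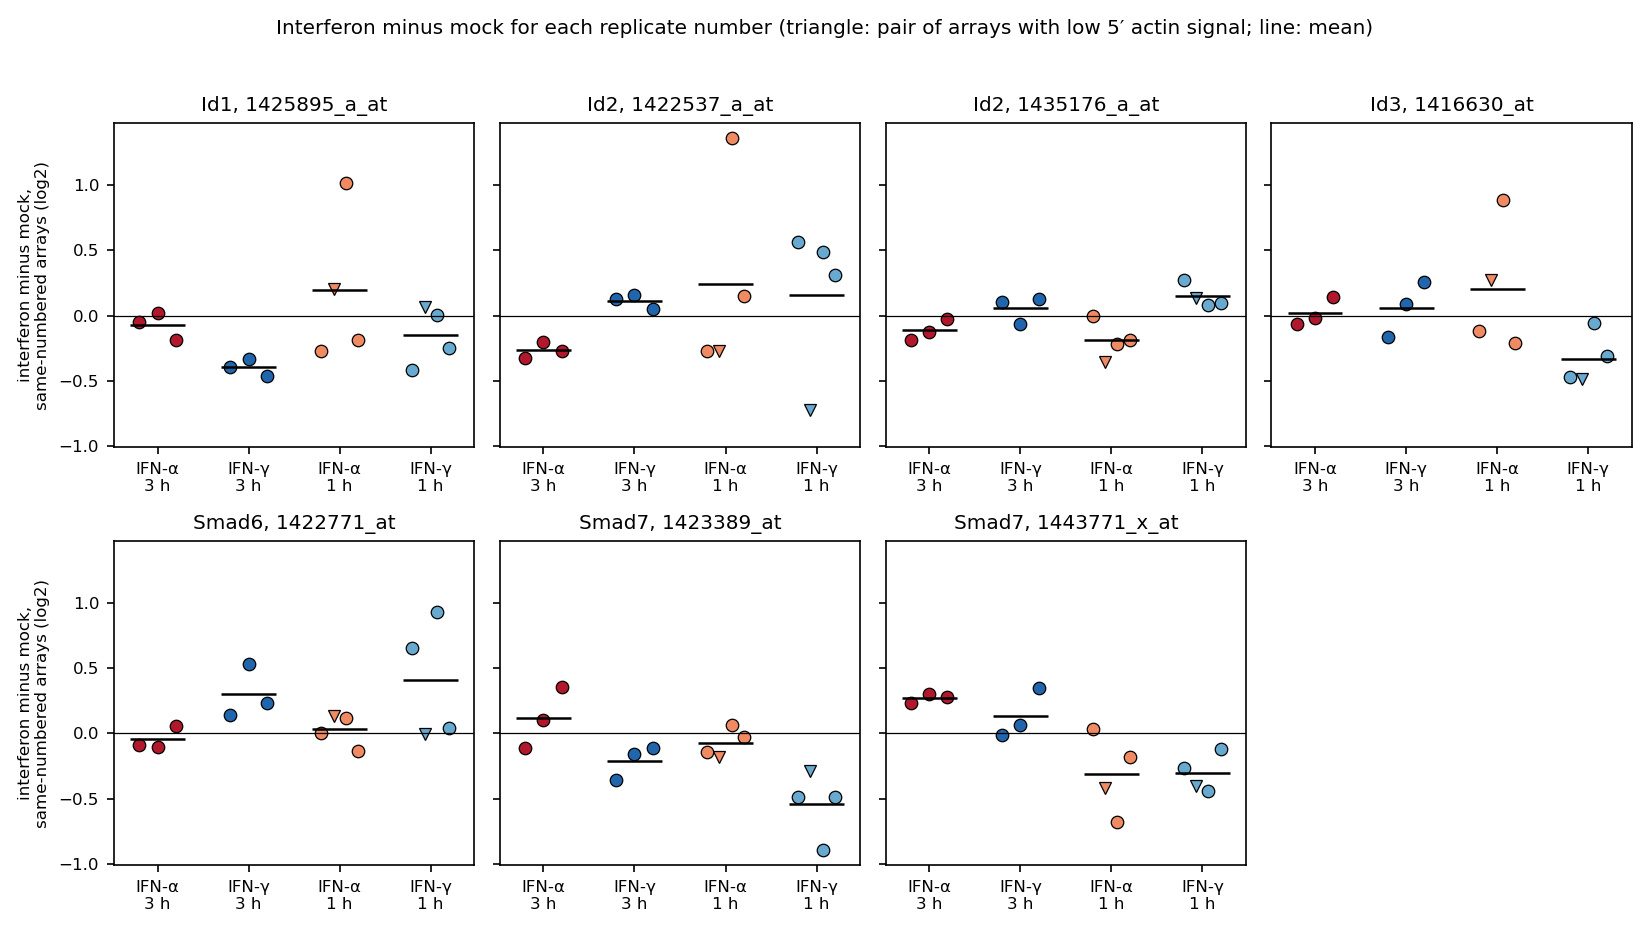
Interferon minus mock difference (log2, y axis) for each replicate number, by interferon and time (x axis), with the mean as a line and triangles for the pair of low 5′ actin arrays. Smad7 1423389_at lies between -0.89 and -0.28 with IFN-gamma at 1 h and Id1 between -0.46 and -0.33 with IFN-gamma at 3 h.

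IFN-alpha and IFN-gamma were also compared directly. By limma none of the 7 probe sets was called, and 0 of 7 had an unadjusted p under 0.05, at 3 h or 1 h (1.68% and 0.363% of all probe sets were called). Smad7 1423389_at was higher with IFN-alpha than with IFN-gamma in 3 of 3 pairs at 3 h and 4 of 4 at 1 h, by 0.32 and 0.47 on average, with blocked adjusted p of 0.475 and 0.100. Without the low 5′ actin arrays the blocked 1 h difference was 0.59 (adjusted p = 0.0331), where 0.528% of all probe sets were called higher. Id1 was likewise higher with IFN-alpha in 3 of 3 pairs at 3 h, by 0.28 to 0.35, and in 4 of 4 at 1 h. With the 3 h arrays fitted alone and blocked, Id1 was 0.32 higher with IFN-alpha (adjusted p = 0.0243) and Id2 1422537_a_at 0.37 lower (difference -0.37, adjusted p = 0.0101), in a fit that called 3.55% of all probe sets higher and 4.04% lower. Leaving out 1 array kept the call in 1 of 6 fits for Id1 and in 4 of 6 for Id2.

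The change of each interferon difference between 1 h and 3 h was tested as an interaction. Of all probe sets 0.953% changed their IFN-alpha difference and 0.829% their IFN-gamma difference, and none of the 7 probe sets did (limma, 0 of 7 with an unadjusted p under 0.05). The largest of these changes was that of Smad7 1443771_x_at, whose IFN-alpha difference was 0.27 at 3 h and -0.31 at 1 h (change 0.58, SE 0.46, adjusted p = 1.00). The 1 h spread left wide intervals: the IFN-gamma change of Id3 was 0.39, with a 95% interval of -1.99 to 2.77.

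The levels at 3 h were set against those at 1 h within each treatment, a comparison in which time, 4sU dose and labelling window change together and cannot be told apart. In mock cells 11.3% of all tested probe sets were called, 5.88% of all tested being lower, and 1 of the 7 was called, Smad7 1443771_x_at. It read 6.56, 6.55 and 6.68 at 3 h, against 7.26, 8.40, 8.37 and 7.44 at 1 h. All 3 h arrays were below all 1 h arrays, as for 13.1% of all probe sets, and the 1 h arrays split into a high pair (replicates 2 and 3) and a lower pair, only 1 of the high pair being a low 5′ actin array. The difference was -1.27 (2.41-fold lower), with an SE of 0.33 and an adjusted p of 0.0162.

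The Smad7 call in mock cells was near the threshold. Without the low 5′ actin arrays the difference was -1.09 (adjusted p = 0.0110). The call was lost without mock 1 h replicate 2 (adjusted p = 0.0579), without mock 3 h replicate 1 (0.0648) or replicate 2 (0.0636), and when only the 2 mock groups were fitted (0.0679). The second Smad7 probe set moved the same way: 1423389_at read 6.45, 6.25 and 6.60 at 3 h, against 7.67, 6.82, 7.01 and 8.35 at 1 h, again without overlap. Its difference of -1.03 (SE 0.41) had an adjusted p of 0.107, and without the low 5′ actin arrays -1.25 with an adjusted p of 0.0463, where 7.6% of all probe sets were called lower.

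Smad7 was lower at 3 h under both interferons too, without passing the test. For 1443771_x_at the IFN-alpha groups did not overlap (6.79, 6.86 and 6.96 at 3 h, against 7.30, 7.98, 7.69 and 7.26 at 1 h), as for 14.4% of all probe sets, with a difference of -0.69 (adjusted p = 0.211). The IFN-gamma groups overlapped (6.55, 6.62 and 7.03, against 7.001, 8.003, 7.93 and 7.32), with a difference of -0.83 (adjusted p = 0.0992). For 1423389_at the differences were -0.85 with IFN-alpha and -0.70 with IFN-gamma (adjusted p = 0.217 and 0.259). By limma none of the 7 probe sets was called under either interferon, while 2 with IFN-alpha and 3 with IFN-gamma had an unadjusted p under 0.05, in comparisons where 9.28% of all were called with IFN-alpha and 13.2% with IFN-gamma.

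Id2 and Smad6 had the opposite sign, with higher values at 3 h in each treatment, and neither was called in the main fit. Id2 1422537_a_at read 8.28, 8.18 and 9.003 in mock cells at 3 h, against 6.94, 5.35, 6.02 and 8.22 at 1 h, and these overlapped through replicate 4 at 1 h. The differences were 1.35 with IFN-alpha, 1.81 with IFN-gamma and 1.86 in mock cells (adjusted p = 0.327, 0.145 and 0.139), and without the low 5′ actin arrays 0.75, 1.08 and 1.43. Smad6 read 5.01, 4.81 and 5.14 in mock cells at 3 h, against 3.64, 2.69, 2.73 and 5.18 at 1 h. Replicate 4 at 1 h was again the array that reached the 3 h range. The limma adjusted p of Smad6 was 0.161 with IFN-alpha, 0.140 with IFN-gamma and 0.117 in mock cells. In the same order, only 1, 2 and 1 of the 4 arrays at 1 h exceeded log2 4, so no size is given. Without replicate 4 at 1 h, Smad6 passed the test in mock cells (adjusted p = 0.0245) and with IFN-alpha (adjusted p = 0.0460), but the 1 h arrays left in both groups lay at 2.69 to 3.64, all below log2 4, so no size is given. On 1435176_a_at, Id2 differences were smaller, 0.63, 0.46 and 0.55 in the same order, with replicate 4 of each 1 h group the highest there.

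Id1 and Id3 gave no steady direction over time. Id1 differences were -0.10 with IFN-alpha, -0.08 with IFN-gamma and 0.17 in mock cells on all arrays, and -0.73, -0.65 and -0.47 without the low 5′ actin arrays. The mock sign thus turned with those arrays. Id3 differences were 0.47, 1.04 and 0.65 on all arrays, and -0.15, 0.35 and 0.01 without them, none of them called.

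Weighting each array by its fit moved these calls. The weights were 1.64 to 9.93 on the 3 h arrays, against 0.00408 to 2.00 on the 1 h arrays. They thus differed between the 2 sides of each comparison. With limma's array weights Smad6 was called higher at 3 h in all 3 treatments (adjusted p = 0.0114 with IFN-alpha, 0.0325 with IFN-gamma and 0.0319 in mock cells). In these fits 16.5%, 16.2% and 12.8% of all probe sets were called higher. Smad6 passed the filter mainly through the 3 h groups. Only 1, 2 and 1 of the 4 arrays at 1 h exceeded log2 4, so no size is given. Smad7 1423389_at was called lower in all 3, with differences of -1.16, -0.85 and -1.30 (adjusted p = 0.00152, 0.0266 and 0.00271), as was 1443771_x_at, with -0.58 and -0.72 under the interferons (adjusted p = 0.0275 and 0.0153), where 15.2% of all probe sets were called lower with IFN-alpha, 12.2% with IFN-gamma and 10.7% in mock cells. Id2 was called higher on 1435176_a_at with IFN-alpha and IFN-gamma (0.68 and 0.63) and on 1422537_a_at in mock cells (1.34). Neither Id1 nor Id3 was called.

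**Figure D4:**
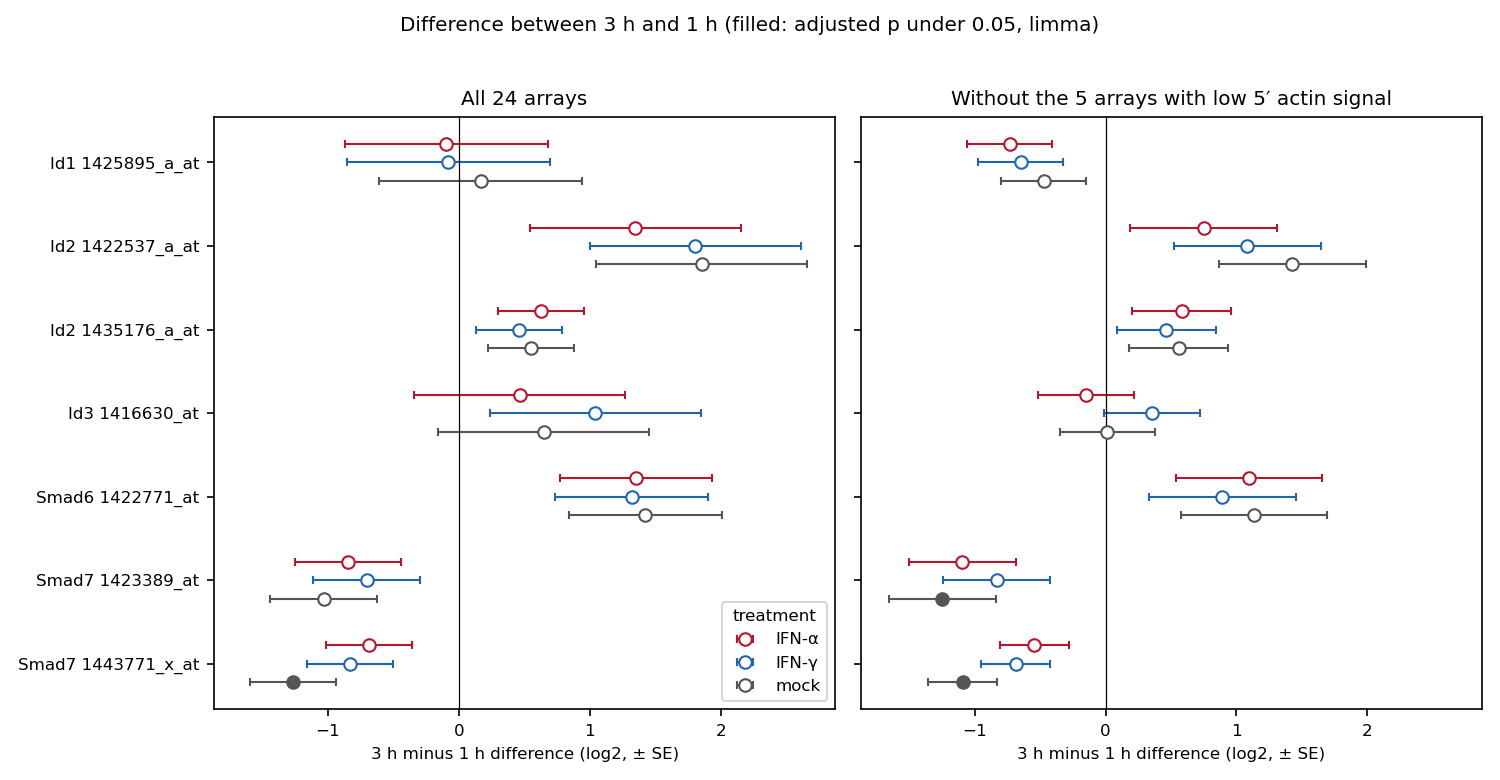
Difference between 3 h and 1 h (log2, x axis, ± SE of the limma fit) of the 7 tested probe sets (y axis) in the 3 treatments, on all 24 arrays (left) and without the 5 arrays with low 5′ actin signal (right). Filled points passed the test: Smad7 1443771_x_at in mock cells in both panels (-1.27 and -1.09) and Smad7 1423389_at in the right panel (-1.25). Smad6 exceeded log2 4 on at most 2 of the 4 arrays of each 1 h group shown.

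Labelling with 4sU was compared with no labelling in mock cells at 1 h. By limma none of the 7 probe sets was called or had an unadjusted p under 0.05 (0 of 7), while 0.0311% of all were called, and 2 of the 3 unlabelled arrays were low 5′ actin arrays. Id1 read 9.996, 7.30, 9.08 and 10.51 with 4sU, against 10.29, 7.91 and 7.58 without. The low arrays of both groups lay below 8 and the others above 9, and without the low arrays the Id1 difference was -0.43 in place of 0.63. Smad7 1423389_at read 7.67, 6.82, 7.01 and 8.35 with 4sU, against 8.08, 7.53 and 7.37 without, overlapping, with a difference of -0.19 (95% interval -1.04 to 0.66). For Id2 1422537_a_at and Smad6 the differences of 0.63 and 0.64 had intervals of -1.05 to 2.31 and -0.58 to 1.85. Smad6 exceeded log2 4 on only 1 of the 4 labelled and 0 of the 3 unlabelled arrays.

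Over the 7 groups, the order of the means on all arrays followed time more than treatment. Both Smad7 probe sets had their 3 lowest means in the 3 h groups and their highest, 7.66 for 1423389_at and 8.13 for 1443771_x_at, in unlabelled mock cells. Without the low 5′ actin arrays the top rank of 1443771_x_at was lost, with 7.52 on the 1 unlabelled array left, against 7.69 in labelled mock cells at 1 h. Id2, on both tested probe sets, Id3 and Smad6 had their 3 highest means in the 3 h groups, with IFN-gamma at the top each time (10.81, 8.60, 9.94 and 5.29). For Id3 this order turned without the low 5′ actin arrays, where the means were 9.88 to 9.94 in the 3 h groups, against 10.05 with IFN-alpha at 1 h and 10.33 on the unlabelled array. Few neighbours in these orders differed by more than the larger of their SDs: IFN-alpha 3 h below mock 3 h for Id2 1435176_a_at (10.64 against 10.75), IFN-gamma 3 h above mock 3 h for Smad6 (5.29 against 4.98), and IFN-alpha 3 h below IFN-alpha 1 h for Smad7 1443771_x_at (6.87 against 7.56). Id1 had no such step, with means from 8.60 in unlabelled mock cells to 9.41 with IFN-alpha at 1 h.

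The pathway around these genes was described with 74 further genes on 7 lists, of which 48 passed the filter. Of the ligands, Bmp2, Bmp4, Bmp5, Bmp6 and Bmp7 were all below it, with mean levels of 2.18 to 3.26, while the receptors Bmpr1a and Bmpr2 and the signalling Smads Smad1, Smad4 and Smad5 were measured. IFN-alpha changed 0 of the 48 at either time (limma, with or without the block). IFN-gamma raised 1 of the 48 at both times, Fst, which encodes follistatin, a secreted antagonist of activins and BMPs (10.16 against 6.09 in mock cells at 3 h and 9.70 against 7.30 at 1 h), where 1.88% of all probe sets were called higher at 3 h and 0.435% at 1 h. It lowered 1 at 3 h, Gdf5, a ligand of the BMP family (4.13 against 4.77, difference -0.65, adjusted p = 0.0381), where 0.114% of all were called lower. Gdf5 lay near the filter, above log2 4 on 8 of 9 arrays at 3 h and on 0 of 15 at 1 h. The median over the 48 genes was -0.05 at 3 h and -0.03 at 1 h, against -0.05 and -0.04 over all tested probe sets.

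With the replicate number as a block, IFN-gamma called 7 of the 48 at 3 h and 4 at 1 h, against 3.4% and 1.07% of all probe sets. At 3 h 2 were higher (Fst and Tgfbi) and 5 lower, and at 1 h 2 were higher (Ets2 and Fst) and 2 lower. Id4, the fourth Id gene, which was on the list of targets and is not one of the 5 genes, was lower at both times. It read 7.23, 7.34 and 7.22 with IFN-gamma at 3 h, against 8.22, 7.98 and 8.07 in mock cells, without overlap, as for 13.2% of all probe sets in the downward direction. At 1 h it read 6.65, 7.33, 6.93 and 8.33, against 7.40, 7.79, 7.70 and 9.20, overlapping but lower in each same-numbered pair. The blocked adjusted p was 0.00222 at 3 h (difference -0.83) and 0.00693 at 1 h (difference -0.71), and 1.00 at both times without the block. All 6 and all 8 blocked fits without 1 array kept these calls, with adjusted p up to 0.0308 and 0.0468, in a comparison where 0.58% of all probe sets were called lower at 3 h. With each time fitted alone and blocked, 6 of 6 kept it at 3 h and 1 of 8 at 1 h.

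Rgmb, a BMP co-receptor, was also lower with IFN-gamma on every array at both times, on its probe set with the highest mean. It read 6.51, 6.19 and 6.15 at 3 h, against 6.87, 6.80 and 6.72 in mock cells, and 7.67, 7.38, 7.17 and 7.31 at 1 h, against 8.20, 7.86, 7.73 and 7.80. The groups did not overlap at either time, as for 13.2% of all probe sets in the downward direction at 3 h and 0.565% at 1 h. The differences of -0.51 at both times were called only with the block (adjusted p = 0.0219 at 3 h and 0.0218 at 1 h), and 1 of 6 and 1 of 8 fits without 1 array kept the call. With each time fitted alone and blocked, 4 of 6 kept it at 3 h and 0 of 8 at 1 h (adjusted p 0.234 to 0.489). Another Rgmb probe set followed Id1 over the 7 group means (r = 0.969). Id1 had its lowest mean, 8.60, in unlabelled mock cells. The Rgmb probe set described here read 8.49, 8.28 and 8.09 there, above each of its 3 h arrays. The Rgmb probe sets thus differed in pattern, and the differences given hold for the described probe set only.

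Between the times, 12 of the 48 pathway genes were called in at least 1 treatment, 7 of them in all 3. With IFN-alpha 3 of the 48 were higher and 6 lower at 3 h (4.71% and 4.57% of all probe sets were), with IFN-gamma 3 and 5 (7.31% and 5.91%), and in mock cells 3 and 8 (5.45% and 5.88%). Without the low 5′ actin arrays the counts were 6 and 10 with IFN-alpha, 4 and 9 with IFN-gamma, and 7 and 10 in mock cells, where 15%, 19.3% and 18.2% of all probe sets were called in either direction. Klf10, an immediate target of TGF-beta, had the largest differences among them (-2.39 to -2.25). Tcf4, an E protein that Id proteins bind, was lower in each treatment (differences -0.96 to -0.64). Ets1, an Ets factor on the same list, was lower as well (-1.09 to -0.87). So was Rgmb, on the probe set described above only (-1.10 to -0.82). Atoh8, a helix-loop-helix factor (1.98 to 2.33), Gdf5 (0.88 to 1.35) and Nedd4l, a ubiquitin ligase that works with Smad7 (0.61 to 0.68), were higher. Gdf5 exceeded log2 4 on 8 of 9 arrays at 3 h and 0 of 15 at 1 h, and Atoh8 on 9 of 9 and 5 of 15, so both passed the filter mainly through the groups where they were high. Without the low 5′ actin arrays Atoh8 was not called with IFN-gamma (adjusted p = 0.0798). Fst (-1.41 with IFN-alpha and -1.21 in mock cells) and Tgif1, a corepressor of Smads (-1.21 and -1.07), were called lower in 2 treatments. None of the 5 measured receptor-regulated and common Smads was called on all arrays without the block, but without the low 5′ actin arrays 1 was called higher with IFN-alpha, 1 with IFN-gamma and 2 in mock cells. The median over the 48 genes was -0.14 with IFN-alpha, -0.12 with IFN-gamma and -0.05 in mock cells, against 0.03, 0.07 and 0.06 over all tested probe sets.

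**Figure D5:**
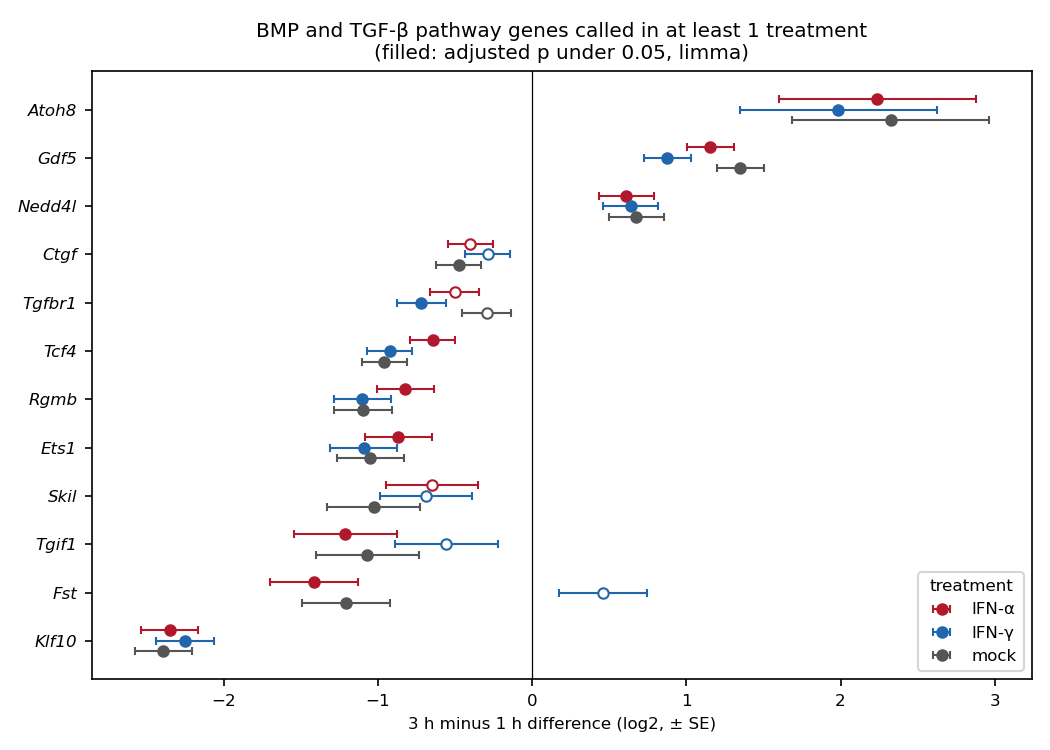
Difference between 3 h and 1 h (log2, x axis, ± SE) of the 12 pathway genes called in at least 1 treatment (y axis), by treatment, with filled points for calls. Klf10 is lowest (-2.39 in mock cells), Atoh8 highest (2.33 in mock cells), and Fst is lower with IFN-alpha and in mock cells but 0.46 with IFN-gamma.

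For each gene the probe sets with the most similar pattern were sought among 4390 that spanned at least 1 log2 unit over the groups, by Pearson's correlation over the 7 group means. The groups share arrays of unequal RNA quality, so these values describe and were not tested. For Id1 they were Rab7b, Ier2, Rgmb, Tbx3 and Fscn1 (r 0.938 to 0.979), and over the 24 arrays Rgmb was closest of these (r = 0.976), on a probe set other than the one whose values are given above. For Id3 they were Pimreg, Acin1, Mrpl34, Kdm1a and 3110082I17Rik (0.993 to 0.995), and for Smad6 they were Pex5, Slpi, Jak1, Acbd6 and Lypla1 (0.995 to 0.998). For Smad7 1443771_x_at they were Mpp6, Zfp398, Tmem170b, Fars2 and Ier5 (0.994 to 0.996). For Id2 1435176_a_at they were Emp2, Cenpa, Top2a, Tspan11 and Pold3 (0.984 to 0.995), but over the 24 arrays these 5 gave only 0.178 to 0.359.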

How the data were processed

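Total RNA from 24 NIH-3T3 samples was measured on 1-colour arrays, with RNA extracted by Trizol and labelled by the one-cycle protocol, per the labels. The deposited values are log2 signals that the authors made with GCRMA, per the submitters' processing notes; the GCRMA version and the number of runs are not given in the sources used here. The 64 control probe sets were left out, and no further scaling was applied. Probe sets were named from the platform annotation (34945 with 1 symbol, 932 with several, 9160 with none), and only those with 1 symbol were named.

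Group means were fitted over 7 groups with limma 3.58.1 (lmFit, eBayes; R 4.3.3, package data.table at version 1.17.8), with 17 residual degrees of freedom and no replicate term, for 12 comparisons. Tests were two-sided with Benjamini-Hochberg adjustment over 19305 probe sets, 84 of the tests falling on the 5 genes. Nothing in the labels shows that replicates came from separate cultures; p-values then reflect array-to-array spread that may be technical, and the number of arrays limits the precision. Replicate numbers, taken from the titles, were judged to pair arrays within a time because deviations from the group means correlated in every interferon and mock pair (0.465 to 0.914 at 1 h, 0.128 to 0.646 at 3 h). At 1 h the same number was the best match in 4 of 4 pairs with either interferon. At 3 h it was in 3 of 3 with IFN-alpha but in 2 of 3 with IFN-gamma. The block within 1 h held labelled and unlabelled arrays of the same number together. The model was tested on simulated data. Every probe set of the 5 genes is described; of the pathway lists the called genes with the largest changes are named (up to 3 a list), and Id4 and Rgmb were chosen for fuller description after their values were seen. A listed gene is represented by its probe set with the highest mean. Alternatives were other filters, quantile normalization, an intensity trend, array weights, a floor at 4, fits of fewer groups, a replicate block and arrays left out. The genes and lists were chosen with earlier results of these data known.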

Additional observations from a re-analysis of the deposited data

Results flagged for a closer look

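The Id2 probe set 1453596_at, which was below the detection filter on every array, had 1 mock array at 1 h, replicate 4, far from the other 3. It read 3.08, and its gap to the nearest array divided by the range of the group was 0.833. Groups of 3 arrays were not examined in this way, and about 1 group in 20 is expected to be marked by chance.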

How the results depend on the processing

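Of the 12 comparisons, the number of called probe sets of the 5 genes changed mainly between 3 h and 1 h. In mock cells it was 1, and 4 with array weights, 2 without the low 5′ actin arrays, 0 when only the groups of the contrast were fitted, with or without those arrays, 0 to 2 when 1 array was left out, and 5 with the replicate block, on all arrays or without the low 5′ actin arrays. With IFN-alpha and with IFN-gamma it was 0, and 4 in each with array weights and with the replicate block, on all arrays or without the low 5′ actin arrays; leaving out 1 array gave 0 to 1 with IFN-alpha and 0 with IFN-gamma. Over all probe sets the block called 20.2% with IFN-alpha, 30.1% with IFN-gamma and 28.9% in mock cells, and 22.8%, 29.5% and 28.8% without the low arrays. The numbers do not pair arrays across times (correlations of -0.268 to 0.179) or, in every pair, across 4sU labelling (0.0809 to 0.802), so the block has no meaning as a test there. Within times, the block called 1 for IFN-gamma against mock at 1 h (also without the low arrays), and 1 for IFN-alpha against IFN-gamma at 1 h without the low arrays. Each time fitted alone with the block, added after the data were seen, called 1 for IFN-gamma against mock and 2 for IFN-alpha against IFN-gamma at 3 h. It changed no other call. No called difference changed sign, and no count changed with quantile normalization, the intensity trend, the filters or the floor. The unblocked fits of each time alone were also added after the data were seen. So were the fits without the low 5′ actin arrays that used the block or only the groups of the contrast. The 1 h spread and Smad6 near log2 4 limit these tests.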
